A study of Mus musculus with 11 samples.

Results

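Proteasome genes were followed in the left ventricle of newborn and adult mice with and without a heart-muscle Hmgn5 transgene. The genes were chosen by name: every gene whose symbol matched the Psma to Psmg series and that was measured by a probe set carrying 1 gene symbol, read through the probe set with the highest mean. This gave 49 genes of 18194, from 103 probe sets of 34958 with 1 symbol. Of the 49, 47 encode proteasome subunits, assembly chaperones, activators or an inhibitor: 7 alpha and 7 beta subunits of the 20S core, 4 genes of the immunoproteasome and its activator, 6 ATPases and 11 other subunits of the 19S particle, 7 chaperones, 3 other activators or inhibitors, and 2 tissue-restricted core subunits. The other 2, Psmc3ip and Psme3ip1, matched by symbol but encode none of these. They were counted among the 49 and left out of the counts by role. Psme2, the partner of Psme1 in the interferon-inducible activator, was represented by a probe set that also carries the symbol Psme2b and was not analysed here.

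Total RNA was hybridised to 11 Affymetrix expression arrays. The transgenic mice carried a mouse Hmgn5 cDNA with a FLAG tag in a vector with the CAG promoter, which is active in many tissues, and a floxed LacZ that a cre recombinase under the alphaMHC promoter of heart muscle cells excised. The labels call the controls wild-type, so the cre and the Hmgn5 transgene cannot be told apart here. All mice were on a C57BL/6 background, with 3 arrays of transgenic and 3 of control adults, and 3 of transgenic and 2 of control newborns, labelled as biological replicates. Ages in weeks and sex are not given in the sources used here. In whole ventricle, fewer cells of a type and less RNA per cell cannot be told apart.

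The proteasome degrades proteins that have been tagged with ubiquitin. Its 20S core is a stack of alpha and beta rings whose beta subunits cut the substrate, and the 19S particle on its end binds ubiquitin chains, removes them, and unfolds the protein with a ring of ATPases. Interferon exchanges the cutting subunits for Psmb8, Psmb9 and Psmb10, which make peptides for MHC class I, and heart muscle relies on the system for the turnover of sarcomere proteins.

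Values are on the log2 scale, where a difference of 1 is a 2-fold change. A gene was called, and is said below to have risen or fallen, at an adjusted p under 0.05 by limma over all 18194 genes. Of the 49 genes, 48 passed a filter on low values (above the array's 40th percentile on at least 2 arrays), and Psmb11 passed it on 0 arrays. Every gene was tested whether or not it passed. Replicates differed more in adults than in newborns: the median SD of the 49 genes was 0.22 in transgenic and 0.23 in control adults, against 0.07 and 0.04 in newborns.

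Several features of the arrays touch the adult comparisons. The 18S control signal was 12.18 and 11.89 on replicate 3 of the transgenic and control adults, 7.64 to 8.58 on the other adult arrays and 10.05 to 10.53 on newborn arrays, so a processing effect of the arrays cannot be told apart from age. The adult replicate 3 arrays of both genotypes are called the 18S batch. The mean of the atrial muscle genes Myl4, Myl7 and Sln was 6.59 and 6.52 on transgenic adult replicates 2 and 3. On the other adult arrays it was 10.10 to 12.24. Newborn arrays had 12.5 to 12.87, above every adult array, so this mean as a covariate cannot be fully told apart from age. Nppa, also on the list of atrial genes, was left out of this mean and went the other way. It read 14.05 to 14.18 in transgenic and 11.21 to 12.02 in control adults. Ucp1, a brown fat gene, read 7.62 on control adult replicate 3 and 3.71 to 3.91 on the other adults. The ventricular muscle genes averaged 13.46 to 13.81 on all 11 arrays. The Hmgn5 probe set read 8.26 to 8.71 in transgenic and 8.44 to 8.77 in control adults, so it did not check the labels. Whether it covers the transgene's transcript is not given in the sources used here.

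Promoter sequence was examined for the genes that changed below, except Psmd3, for which no promoter window was found. RefSeq promoter windows of assembly GRCm38.p6, from 250 bases before to 50 bases after the start, were found for 41 of the 49 genes (44 windows). They were searched on both strands for 8 motifs, of which 3 are described first: TGACNNNGC, the core of the antioxidant response element that Nfe2l1 and Nfe2l2 bind, GAAA, any 2 bases and GAAA again, of the interferon-stimulated response element, and TTCNNNGAA, of the gamma-activated site that Stat factors bind. The sites of these 3 motifs in genes called in any comparison are printed because such factors are known regulators of proteasome genes. Capitals mark the motif, read on the gene's strand, with flanks in lower case.
Psmc6, chr14:45329587-45329615, plus strand, antioxidant motif on the opposite strand, 227 bases before the start: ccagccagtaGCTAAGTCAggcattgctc
Psme4, chr11:30771758-30771786, plus strand, antioxidant motif on the opposite strand, 7 bases before the start: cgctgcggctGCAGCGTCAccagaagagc
Psmd9, chr5:123228149-123228177, plus strand, antioxidant motif 31 bases before the start: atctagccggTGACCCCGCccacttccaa
Psmd9, chr5:123228021-123228050, plus strand, interferon motif 159 bases before the start: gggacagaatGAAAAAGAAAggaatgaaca
Psme1, chr14:55578493-55578522, plus strand, interferon motif on the opposite strand, 10 bases after the start: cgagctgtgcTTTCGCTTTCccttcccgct
Psmb8, chr17:34198088-34198116, plus strand, gamma-activated motif 97 bases before the start: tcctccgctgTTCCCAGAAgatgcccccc

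The antioxidant motif stood in 6 of 44 windows (13.6%), against 12.39% of all 32851 windows of this length. The interferon motif stood in 5 (11.4%, against 3.44% of all windows), in Psmb3, Psmd4, Psmd9, Psme1 and Psmg4. The gamma-activated motif stood in 3 (6.8%, against 8.3%), in Psmb8, Psmd2 and Psmg1. Of the other motifs, CCAAT was found in 36.4% of the windows against 37.41% of all, the NF-kappaB-like motif (GGGA, any 4 bases, CC) in 11 of 44 against 20.73% of all, CCGGAAGTG (ETS-like) in 9.1% against 2.03%, the palindromic motif of nuclear respiratory factor 1 in 4.5% against 0.97%, and the heat shock element (GAA, TTC and GAA, each pair with any 2 bases between) in 0 windows against 0.6%. The windows of Psmd8 and Psmc4 held none of the 8 motifs. A match is a run of letters and was not tested as a binding site.

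In adult hearts, 4 genes of the 19S particle were higher in transgenic mice: the deubiquitinase Psmd14, the lid subunit Psmd8, and the ATPases Psmc4 and Psmc6. Psme1, a subunit of the interferon-inducible activator, was lower. That is 5 of 49 genes called (10.2%), against 7.09% of all genes, with 4 higher (8.16%, against 4.16% of all genes) and 1 lower (2.04%, against 2.93%), so the share of members called was near that of all genes. The groups did not overlap, with all transgenic above all control adults, for 9 of the 49 (18.4%, against 10.0% of all genes), and with all below for 1 (2.04%, against 7.94%). Most other members had small values: 36 of the 47 subunits and regulators were above 0 (76.6%, against 50.9% of all genes), with a median difference of 0.16 where the median of all genes was 0.00.

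**Figure D1:**
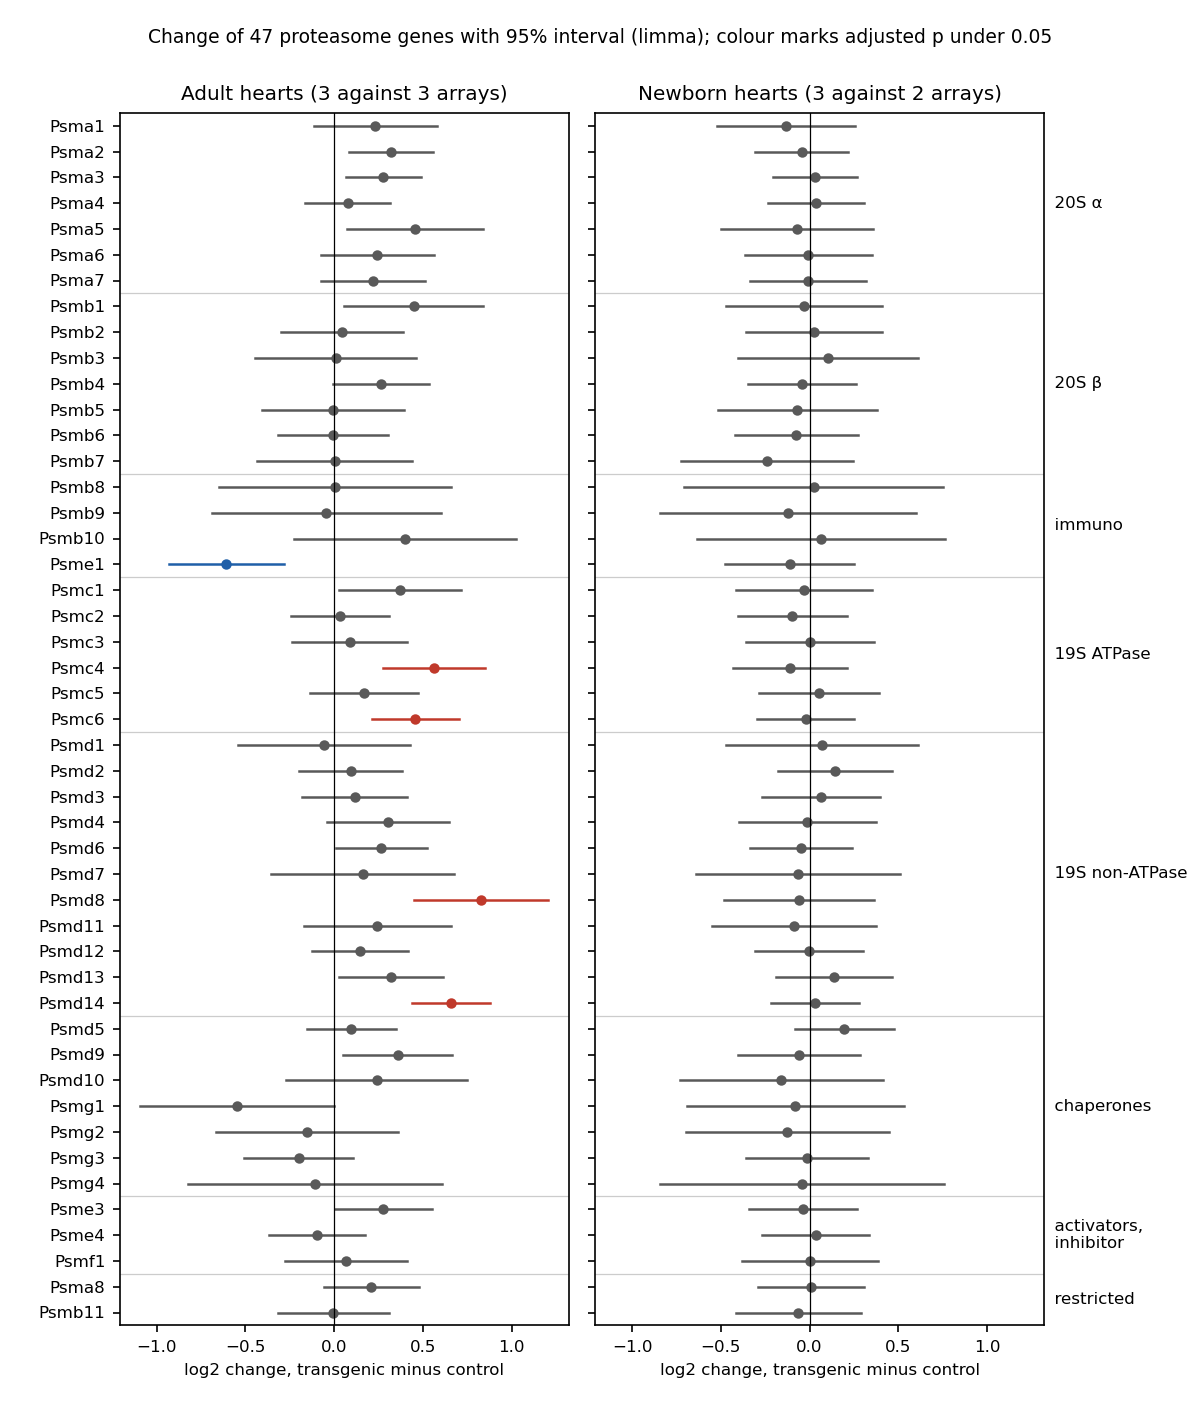
Log2 difference of transgenic minus control (horizontal axis) for each of 47 proteasome genes, in adults and in newborns, with 95% intervals from limma, ordered by role. Colour marks the 5 genes called in adults (Psmd14, Psmd8, Psmc4, Psmc6 and Psme1), and 0 were called in newborns.

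Among the non-ATPase subunits of the 19S particle, Psmd14 removes ubiquitin chains as the substrate enters the core. Psmd14 read 11.17, 11.14 and 11.27 in transgenic adults and 10.55, 10.64 and 10.43 in control adults. Every transgenic array lay above every control array. The difference was 0.66 (SE 0.10, n = 3 and 3, 1.58-fold, adjusted p = 0.00314 by limma). Psmd8, which sits in the lid of the 19S particle, read 11.26, 10.58 and 10.84 in transgenic and 10.00, 10.35 and 9.86 in control adults. These groups did not overlap, and the spread was wider (SD 0.34 and 0.25). The difference for Psmd8 was 0.83 (SE 0.17, 1.77-fold, adjusted p = 0.015 by limma). Without control adult replicate 3 it was 0.72 with adjusted p = 0.0526. The other 9 genes of this group were not called. In all, 10 of the 11 were above 0, with a median of 0.24 and a range of -0.06 to 0.83. Psmd14 and Psmd8 were each measured by 1 probe set with 1 symbol.

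The 6 ATPases of the 19S particle form the ring that pulls substrates into the core. Psmc4 read 10.54, 10.87 and 11.02 in transgenic and 10.25, 10.26 and 10.23 in control adults. The control arrays were nearly equal (SD 0.02) and all lay below the transgenic arrays. The difference was 0.56 (SE 0.13, 1.48-fold, adjusted p = 0.0252 by limma). A second Psmc4 probe set gave 0.63 (adjusted p = 0.0768 over all probe sets). Psmc4 was not called without control adult replicate 2 (adjusted p = 0.0725) or 3 (0.0654) or transgenic adult replicate 2 (0.0717). Psmc6, another ATPase of the ring, read 10.92, 10.89 and 11.17 in transgenic and 10.55, 10.61 and 10.44 in control adults, again without overlap. The difference was 0.46 (SE 0.11, 1.37-fold, adjusted p = 0.0321 by limma). The Psmc6 call was the least stable of the 5: leaving out any array other than transgenic adult replicate 2 gave adjusted p between 0.0513 and 0.0921. The gene's other probe sets gave 0.05 and 0.18. The other 4 ATPases were not called. All 6 were above 0, with a median of 0.27 and a range of 0.03 to 0.56.

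**Figure D2:**
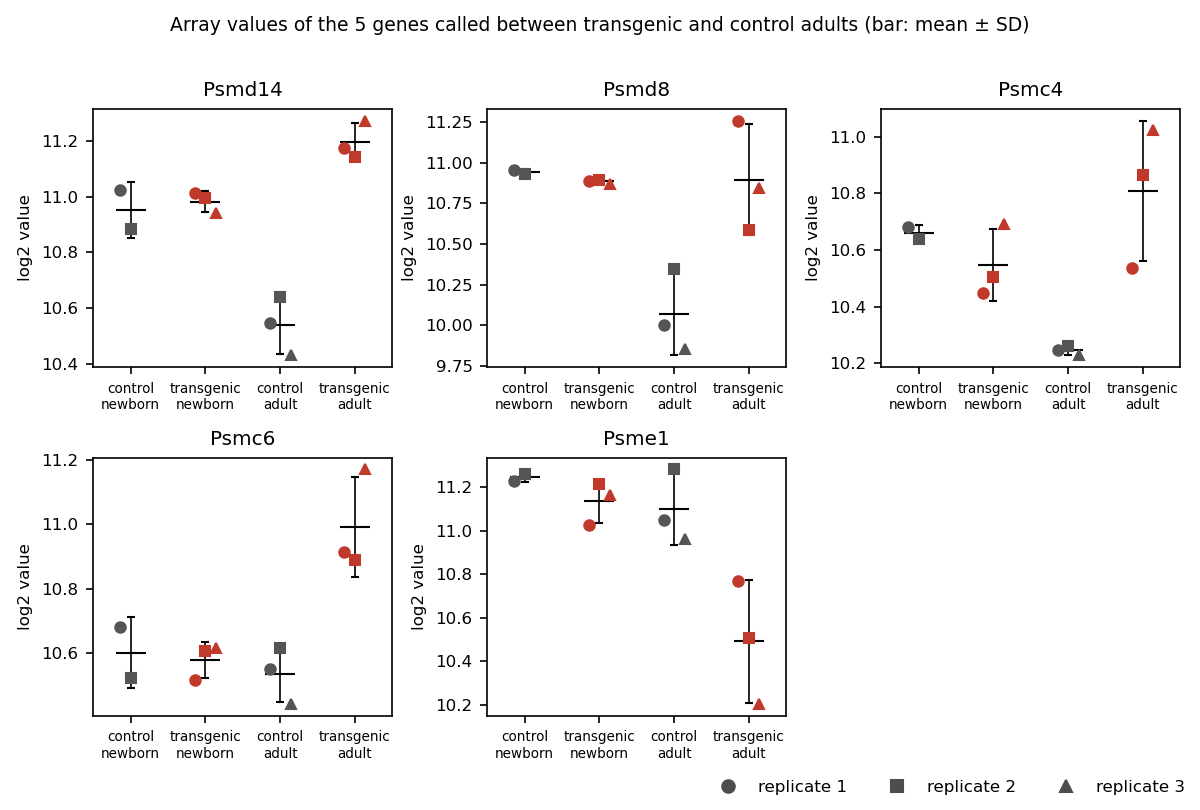
Log2 array values (vertical axis) of the 5 genes called between transgenic and control adults, in the 4 groups, with 1 point per array and the mean ± SD as bars. For each gene the adult groups do not overlap, while the newborn values of both genotypes lie close together.

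In the 20S core, 0 of 7 alpha and 0 of 7 beta subunits were called in adults, while the fit with an 18S batch factor called Psma5 and Psmb1, and the fit without control adult replicate 1 called Psma5. The alpha subunits, whose ring gates entry to the core, were all above 0 (7 of 7), with a median of 0.24 and a range of 0.08 to 0.46. Psma2 had the smallest p of these, with 11.62, 11.43 and 11.63 in transgenic and 11.26, 11.37 and 11.09 in control adults. Its groups did not overlap, but the difference of 0.32 (SE 0.11) was not called (adjusted p = 0.106 by limma). The beta subunits, which include the cutting sites, had a median of 0.01 and a range of -0.01 to 0.45, with 5 of 7 above 0. The upper end was Psmb1, a non-catalytic beta subunit, with a difference of 0.45 (SE 0.18, adjusted p = 0.177 by limma, and 0.0175 with the 18S factor). Psmb1 read 11.92, 11.66 and 11.47 in transgenic and 11.45, 11.45 and 10.80 in control adults, so its groups did not overlap. The lowest value came from control replicate 3.

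Psme1, 1 of the subunits of the interferon-inducible activator that opens the core gate, read 10.77, 10.51 and 10.20 in transgenic and 11.05, 11.28 and 10.96 in control adults. Every transgenic array lay below every control array. Psme1 fell by 0.61 on the log2 scale (SE 0.15, 1.52-fold, adjusted p = 0.0314 by limma). The call was lost without control adult replicate 2 (adjusted p = 0.118), transgenic adult replicate 2 (0.0709) or control adult replicate 1 (0.0527), and without any newborn array but transgenic replicate 1 (0.0537 to 0.0557). The immunoproteasome cutting subunits were not called. Psmb8 read 8.29, 7.98 and 6.87 in transgenic and 7.84, 7.86 and 7.43 in control adults, a difference of 0.00 (SE 0.30, 95% interval -0.65 to 0.66, adjusted p = 0.996 by limma). Transgenic replicate 3 was the lowest adult array and transgenic replicate 1 the highest, so the groups overlapped fully. Psmb9 showed the same order of arrays, with 7.98, 7.72 and 6.59 in transgenic and 7.58, 7.66 and 7.19 in control adults (difference -0.04, SE 0.29, 95% interval -0.69 to 0.60, adjusted p = 0.964 by limma). Psmb10 read 10.37, 9.91 and 9.07 in transgenic and 9.62, 9.60 and 8.93 in control adults (difference 0.40, SE 0.28, 95% interval -0.23 to 1.02, adjusted p = 0.517 by limma). For Psmb10, replicate 3 was the lowest array of each group, and the groups overlapped. Without transgenic adult replicate 3, Psmb10 was called at 0.75 (adjusted p = 0.0334).

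Values of other cell types differed between these arrays. Of all genes, 4.16% rose and 2.93% fell in transgenic adults. Of 15 leukocyte and macrophage genes, 4 rose in transgenic adults, and the mean over the list was 8.43, 8.57 and 7.71 in transgenic and 7.98, 7.68 and 7.58 in control adults. Of 9 T and B cell genes 0 were called in adults, with list means of 4.69 to 5.10 and the lowest on transgenic replicate 3, the array that was also lowest for Psmb8 and Psmb9. Of 14 genes of MHC class I antigen processing, 0 rose and 1 fell, the chaperone Canx by 0.53 (SE 0.14, adjusted p = 0.0401 by limma). The list mean was 8.27 on transgenic replicate 3 and 8.52 to 8.85 on the other adult arrays. Of 8 fibroblast genes, 1 rose (Tcf21 by 0.82, adjusted p = 0.0223 by limma) and all 8 were above 0 with a median of 0.54. Their list mean was 10.85, 10.92 and 10.33 in transgenic and 10.10, 9.67 and 10.59 in control adults. Of 6 endothelial genes, 1 fell (Kdr by 0.78, adjusted p = 0.0209 by limma), with list means of 8.55, 8.34 and 8.42 against 8.57, 8.61 and 8.56. The part of these cell types in the proteasome values was not tested.

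The assembly chaperones build the rings and leave the finished particle. Of 7 chaperones 0 were called in adults, against 7.09% of all genes. In all, 3 of the 7 were above 0, with a median of -0.11 and a range of -0.55 to 0.36. Those above 0 were the chaperones of the 19S base (Psmd9 0.36, Psmd10 0.24 and Psmd5 0.10), and those below 0 the core chaperones Psmg1 to Psmg4 (-0.55 to -0.11), a split seen after the values. The median changed sign between alternatives (-0.23 to 0.13), and Psmg1 was called under the 18S factor and without that batch. The smallest p was that of Psmd9, a chaperone of the 19S base, at 0.36 (SE 0.14, adjusted p = 0.168 by limma). Psmd9 read 8.05, 7.75 and 7.88 in transgenic and 7.66, 7.71 and 7.24 in control adults, without overlap. Of the other activators and the inhibitor, 0 of 3 were called. Psme3, the nuclear activator, differed by 0.28 (SE 0.12, adjusted p = 0.241 by limma). The testis subunit Psma8 (4.32 to 4.78 on adult arrays) and the thymus subunit Psmb11 (3.78 to 4.24) lay near or below the array's 40th percentile of 4.49 to 4.60, and neither was called (Psma8 0.21, SE 0.12, adjusted p = 0.392 by limma). Testis genes averaged 3.98 to 4.34 and thymus genes 4.16 to 4.46 over the 11 arrays.

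Because replicate 3 of both adult groups had high 18S signal, the adult differences were also taken within each set. In replicates 1 and 2 the differences were 0.57 for Psmd14, 0.75 for Psmd8, 0.45 for Psmc4, 0.32 for Psmc6 and -0.53 for Psme1. In replicate 3, with 1 array a group, they were 0.84, 0.99, 0.80, 0.73 and -0.76 in the same order. The signs of these 5 are fixed by groups that do not overlap. Psmb8 and Psmb9, whose groups overlap, were 0.29 and 0.23 in replicates 1 and 2, and -0.56 and -0.60 in replicate 3. Over the 47 subunits and regulators, the median difference was 0.06 in replicates 1 and 2 and 0.34 in replicate 3, with 31 and 39 genes above 0 and 28 above 0 in both. Control adult replicate 3 was the lowest adult array for 28 of the 47 genes (59.6%), against 23.8% of all genes. The median over the 47 was 0.08 without that array. With the atrial mean as a covariate, 0 of the 5 genes were called, and 1.31% of all genes were, against 7.09% without it. The values were 0.59 for Psmd14 (adjusted p = 0.0887 by limma), 1.07 for Psmd8 (0.064), 0.30 for Psmc4 (0.463), 0.34 for Psmc6 (0.401) and -0.41 for Psme1 (0.435). The values of Psmd14 and Psmd8 were thus close to or above those without the covariate, and those of the other 3 were lower in size.

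**Figure D3:**
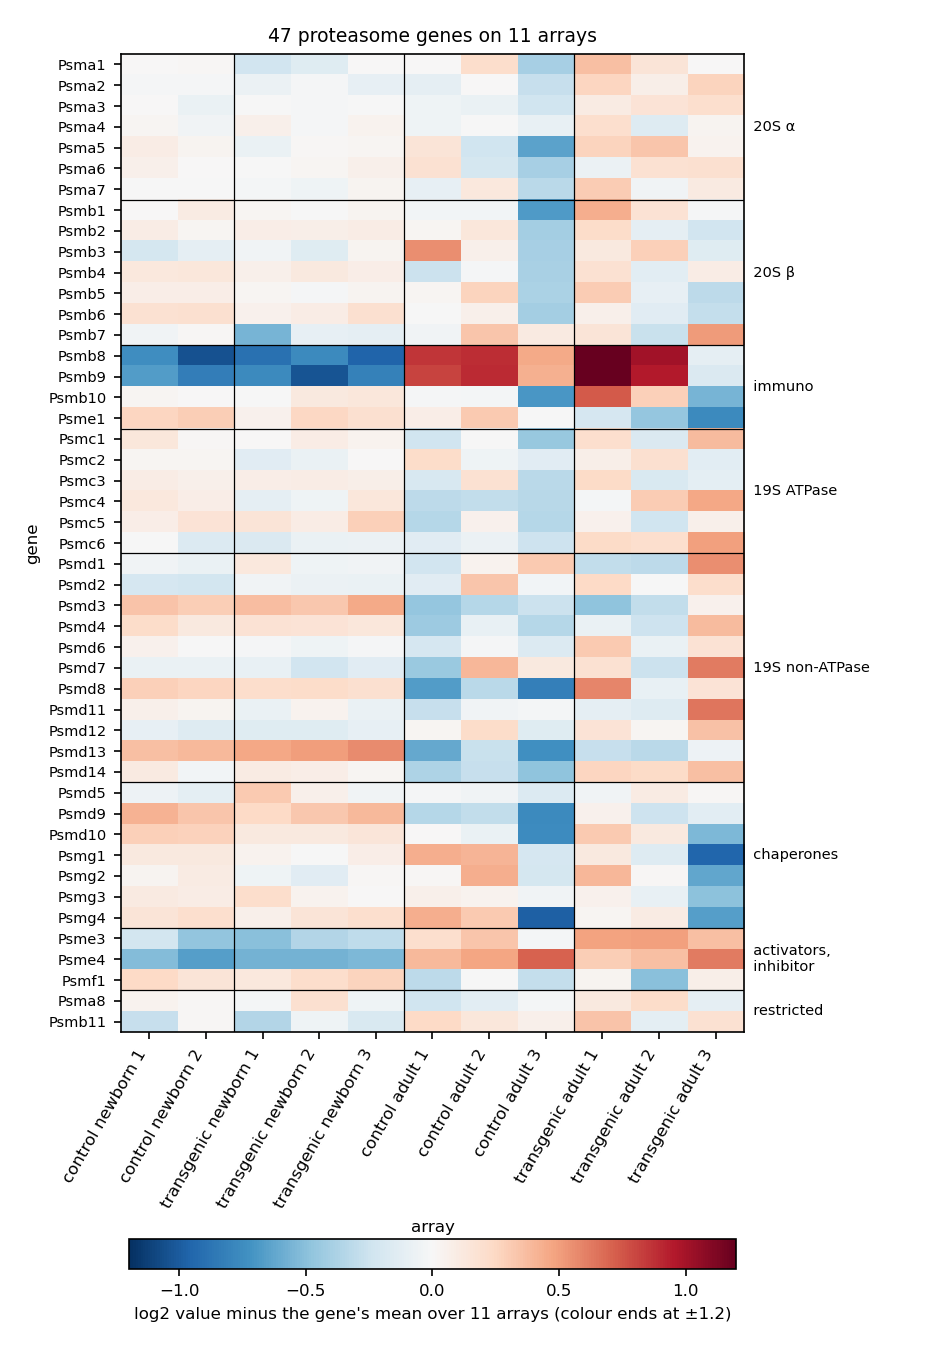
Log2 value of each of 47 proteasome genes minus its mean over 11 arrays (colour), with genes in rows by role and arrays in columns by group. Newborn columns of both genotypes look alike, control adult replicate 3 is the lowest adult array for 28 of 47 genes, and Psmb8, Psmb9, Psme3 and Psme4 separate the ages.

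In newborn hearts, 0 of 49 genes were called between transgenic and control (background 0% of all genes). The differences ran from -0.24 to 0.20 with a median of -0.03, and the smallest adjusted p was 0.999985 by limma. At an unadjusted p under 0.05 the count was also 0 of 49, against 198 of all 18194 genes. All transgenic newborns lay above both controls for 3 genes (6.12%, against 11.1% of all genes) and below for 12 (24.5%, against 9.83%), by at most 0.24. The genes called in adults had newborn differences of 0.03 (Psmd14, 95% interval -0.22 to 0.28), -0.06 (Psmd8, -0.48 to 0.36), -0.11 (Psmc4, -0.43 to 0.21), -0.02 (Psmc6, -0.30 to 0.25) and -0.11 (Psme1, -0.47 to 0.25). Psmd14 read 11.01, 10.99 and 10.94 in transgenic and 11.02 and 10.88 in control newborns, with overlap. Psmd8 read 10.89, 10.89 and 10.87 in transgenic and 10.96 and 10.93 in control newborns. All transgenic values of Psmd8 were lower here, by a mean of 0.06.

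The difference between the adult and the newborn effect was itself tested. It was called for 0 of 49 genes, against 0.687% of all genes. An unadjusted p under 0.05 was found for 6 of the 49, against 1819 of all 18194 genes. The difference of effects was 0.63 for Psmd14 (SE 0.15, adjusted p = 0.103), 0.89 for Psmd8 (SE 0.26, 0.192), 0.68 for Psmc4 (SE 0.20, 0.19), 0.48 for Psmc6 (SE 0.17, 0.308) and -0.50 for Psme1 (SE 0.22, 0.486), all by limma. For these genes, an effect particular to adult hearts did not pass the test at this number of arrays.

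With age, Psmb8 and Psmb9 and the activators Psme3 and Psme4 rose in hearts of both genotypes, while the 19S subunits Psmd13 and Psmd3 and the chaperone Psmd9 fell in both. In control hearts 4 genes rose (8.16%, against 14.9% of all genes) and 6 fell (12.2%, against 18.1%), 20.4% called in all against 33.0% of all genes. In transgenic hearts 5 rose (10.2%, against 19.7%) and 4 fell (8.16%, against 19.7%), 18.4% in all against 39.4%. After cyclic loess between arrays, the transgenic split was 8 rose and 3 fell, and the control split 4 rose and 5 fell. Among all genes called after cyclic loess, 51.1% rose in transgenic and 48% in control hearts. The median change was -0.14 in controls and 0.07 in transgenic hearts, where the median of all genes was 0.09 in each. All adult arrays lay above all newborn arrays for 6 genes in controls (12.2%, against 35.1% of all genes) and 11 in transgenic hearts (22.4%, against 30.0%), and below for 20 (40.8%, against 28.5%) and 6 (12.2%, against 24.7%).

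The immunoproteasome subunit Psmb8 read 6.23 and 5.93 in control newborns and 6.08, 6.21 and 6.01 in transgenic newborns. Against the adult values given above, the ages did not overlap in either genotype. Psmb8 rose by 1.63 in controls (SE 0.33, n = 3 and 2, 3.09-fold, adjusted p = 0.00363 by limma) and by 1.61 in transgenic hearts (SE 0.30, n = 3 and 3, adjusted p = 0.00182). These values are from the higher of its 2 probe sets. Over 23 alternatives the rise of Psmb8 was 1.02 to 1.91 in controls and 0.99 to 2.27 in transgenic hearts, and it was called in all. Psmb9 read 6.10 and 5.94 in control and 6.00, 5.73 and 5.96 in transgenic newborns, again below every adult array. It rose by 1.46 in controls (SE 0.33, adjusted p = 0.00638) and by 1.54 in transgenic hearts (SE 0.29, adjusted p = 0.00224). Without control newborn replicate 2 the control rise of Psmb9 was 1.38 with adjusted p = 0.0511. The third inducible subunit, Psmb10, did not pass the test: it read 9.65 and 9.64 in control and 9.62, 9.74 and 9.76 in transgenic newborns, within the range of the adults. Its change was -0.26 in controls (SE 0.32, adjusted p = 0.54) and 0.07 in transgenic hearts (SE 0.28, adjusted p = 0.85). The transgenic change of Psmb10 was called under the 18S factor (0.36, adjusted p = 0.0478) and without that batch (0.43, adjusted p = 0.0219). Psme1 was at 11.23 and 11.26 in control and 11.03, 11.21 and 11.16 in transgenic newborns. It fell by 0.64 with age in transgenic hearts (SE 0.15, adjusted p = 0.00625, and -0.34 with adjusted p = 0.438 under the atrial covariate), while in controls the change was -0.15 (SE 0.16, adjusted p = 0.503).

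**Figure D4:**
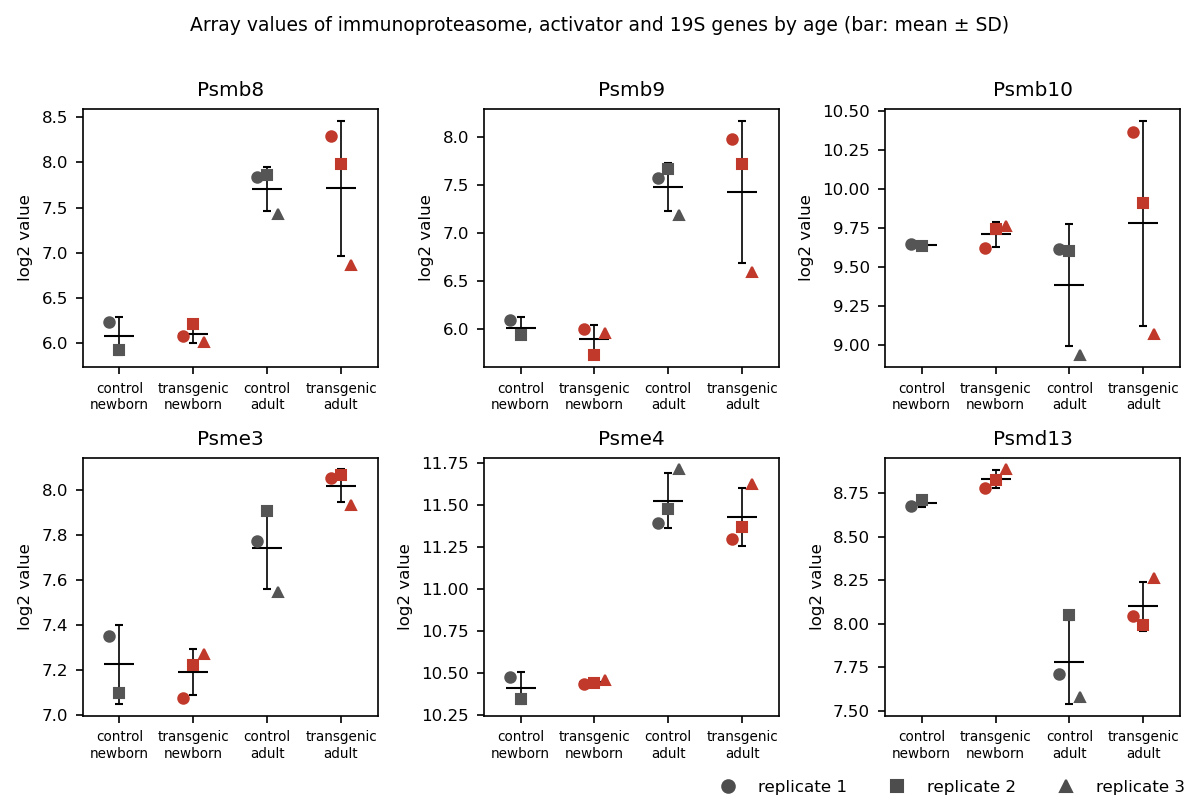
Log2 array values (vertical axis) of Psmb8, Psmb9, Psmb10, Psme3, Psme4 and Psmd13 in the 4 groups, with 1 point per array, marker shapes for the replicate number and bars for mean ± SD. Adult values of Psmb8, Psmb9, Psme3 and Psme4 lie above, and those of Psmd13 below, all newborn values, while those of Psmb10 overlap with the newborns.

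Genes of leukocytes and of MHC class I processing changed over the same ages. Of all genes, 14.9% rose and 18.1% fell in controls, and 19.7% rose and 19.7% fell in transgenic hearts. Of 15 leukocyte and macrophage genes, 10 rose in control and 14 in transgenic hearts, and the list averaged 7.58 to 8.57 on adult and 6.30 to 6.61 on newborn arrays. Of 9 T and B cell genes, 6 rose in each genotype, with list means of 4.69 to 5.10 and 4.36 to 4.49. Of 14 MHC class I genes, 9 rose and 1 fell in each genotype. Among those that rose in controls were Erap1 (1.30), which trims peptides, the transporter Tap2 (0.91), the inducer Irf1 (0.86) and the class I chain H2-K1 (1.22). In controls 2 of the 14 were below 0. These were Irf8, with means of 6.00 in newborns and 5.41 in adults, and Pdia3, with 10.50 and 10.00. How far the rise of Psmb8 and Psmb9 moves with the number of leukocytes was not tested.

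Psme4, an activator that caps the core without needing ubiquitin, read 10.48 and 10.34 in control and 10.44, 10.44 and 10.46 in transgenic newborns. In adults it read 11.39, 11.48 and 11.71 in controls and 11.30, 11.37 and 11.63 in transgenic hearts, well apart from the newborns. Psme4 rose by 1.12 in controls (SE 0.14, 2.17-fold, adjusted p = 1.5e-04 by limma) and by 0.99 in transgenic hearts (SE 0.12, adjusted p = 1.49e-04). The gene's 6 probe sets, from the highest mean down, gave 1.12, 1.04, 1.24, 0.83, 0.09 and 0.02 in controls and 0.99, 1.02, 1.07, -0.06, -0.13 and -0.17 in transgenic hearts. With the mean of all of them the transgenic change of Psme4 was 0.45 and was not called (adjusted p = 0.0773). Psme3 read 7.35 and 7.10 in control and 7.08, 7.22 and 7.27 in transgenic newborns, against 7.77, 7.91 and 7.55 in control and 8.05, 8.07 and 7.94 in transgenic adults. The ages did not overlap. Psme3 rose by 0.52 in controls (SE 0.14, adjusted p = 0.0157) and by 0.83 in transgenic hearts (SE 0.12, adjusted p = 4.91e-04). The control call of Psme3 was lost without control newborn replicate 2 (0.39, adjusted p = 0.137), and both calls under the atrial covariate (0.48, adjusted p = 0.0516, and 0.73, adjusted p = 0.0852). That covariate was higher on every newborn than on every adult array, so it cannot be fully told apart from age.

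In the 19S particle, 4 of 11 non-ATPase subunits and 1 of 6 ATPases fell with age in controls, against 18.1% of all genes. In transgenic hearts 2 of 11 and 0 of 6 fell, against 19.7% of all genes. There 1 ATPase rose, where 19.7% of all genes rose. Psmd13, a lid subunit, read 8.68 and 8.71 in control and 8.78, 8.83 and 8.89 in transgenic newborns. In adults it read 7.71, 8.05 and 7.58 in controls and 8.04, 7.99 and 8.26 in transgenic hearts, below all newborns. Psmd13 fell by 0.91 on the log2 scale in controls (SE 0.15, adjusted p = 9.03e-04 by limma) and by 0.73 in transgenic hearts (SE 0.13, adjusted p = 0.00165). In controls its 4 probe sets gave -0.91, -0.84, -0.83 and -0.83. Psmd3, another lid subunit, fell by 0.68 in controls (SE 0.15, adjusted p = 0.00638) and by 0.62 in transgenic hearts (SE 0.14, adjusted p = 0.00467). Psmd9 fell by 0.84 (SE 0.16, adjusted p = 0.00201) and by 0.43 (SE 0.14, adjusted p = 0.0325). The transgenic call of Psmd9 was lost with cyclic loess (-0.24, adjusted p = 0.20), with the atrial covariate (-0.42, 0.346), without transgenic adult replicate 2 (-0.35, 0.0991) and without transgenic newborn replicate 1 (0.0579), 2 (0.0851) or 3 (0.0961).

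The genes that were higher in transgenic adults moved with age as follows, the 2 comparisons sharing the 3 control adult arrays. In controls Psmd8 fell by 0.88 (SE 0.19, adjusted p = 0.0057 by limma), Psmd14 fell by 0.41 (SE 0.11, adjusted p = 0.0166) and Psmc4 fell by 0.41 (SE 0.15, adjusted p = 0.0493). In transgenic hearts the changes of these genes were 0.01, 0.21 and 0.26, and 0 of the 3 were called. Psmc6 changed by -0.07 in controls (adjusted p = 0.697) and rose by 0.41 in transgenic hearts (SE 0.11, adjusted p = 0.0142). That rise was not called with the mean of its probe sets (0.35, adjusted p = 0.0755), without transgenic newborn replicate 1 (0.38, 0.0548) or with the atrial covariate (0.23, 0.501). Without control newborn replicate 1, the control falls of Psmd8 (adjusted p = 0.0501), Psmd3 (0.0595), Psmd14 (0.154) and Psmc4 (0.217) were not called, which left 6 of the 10 control calls. The Psmc4 call with age was lost without any array but transgenic adult replicate 1 or 3, with adjusted p of at least 0.0587.

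In the 20S core, 0 of 7 alpha and 0 of 7 beta subunits were called with age in either genotype. The shares of all genes called were 33.0% in controls and 39.4% in transgenic hearts. Some alternatives called single core subunits with age. In transgenic hearts these were Psma1, Psma5 and Psmb1 under the 18S factor, and Psma1 and Psmb1 without that batch (50.9% of all genes called). Further such calls were Psma1 with array weights, Psma2 with cyclic loess, Psmb1 with the mean of probe sets, and Psmb7 without transgenic adult replicate 2. In controls they were Psmb3 without the 18S batch, Psma1 with the mean of probe sets, Psma5 without control adult replicate 1 and Psmb4 without control adult replicate 2. In controls the smallest p in the alpha ring was that of Psma5 (-0.30, adjusted p = 0.245 by limma) and in the beta ring that of Psmb4 (-0.35, adjusted p = 0.0743). In transgenic hearts these were Psma2 (0.26, adjusted p = 0.0783) and Psmb7 (0.39, adjusted p = 0.138). All 7 alpha subunits had values below 0 in controls (-0.30 to -0.04), and 6 of 7 had values above 0 in transgenic hearts. Psmb11, near background, changed by 0.28 and 0.33 without a call.

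Related genes of the pathway were counted in lists chosen by function. Of all genes, 4.16% rose and 2.93% fell in transgenic adults. With age, 14.9% of all genes rose and 18.1% fell in controls, and 19.7% rose and 19.7% fell in transgenic hearts. Of 11 measured regulators of proteasome genes, 2 rose in transgenic adults and 0 fell, with a median of 0.09. Mafk, a small Maf partner of Nfe2l1 and Nfe2l2, read 8.83, 8.84 and 9.16 in transgenic and 8.02, 8.02 and 7.80 in control adults. The groups stood apart, by 0.99 (SE 0.14, adjusted p = 0.00244 by limma). Maff, another small Maf, rose by 1.43 (SE 0.27, adjusted p = 0.00923). Nfe2l2 differed by 0.35 (adjusted p = 0.164) and was not called. With age, 4 regulators rose in controls (Nfe2l2 by 0.71, Ngly1 by 0.70, Nfe2l1 by 0.68 and Mafk by 0.57), and 5 rose and 1 fell in transgenic hearts.

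Of 18 measured proteasome partners and shuttles, 1 rose in transgenic adults and 0 fell, with a median of 0.09. It was Zfand2a, an arsenite- and heat-inducible partner of the 19S particle, at 0.44 (SE 0.12, adjusted p = 0.0433 by limma). With age, 1 partner rose and 3 fell in each genotype. Among all genes 14.9% rose and 18.1% fell in controls, and 19.7% rose and 19.7% fell in transgenic hearts. Of 12 ubiquitin ligases known from muscle, 0 were called in transgenic adults. In controls 2 of them rose with age (Trim54 by 2.94 and the atrophy ligase Fbxo32 by 1.14) and 4 fell (among them Ube4b by 1.15 and Nedd4 by 0.87). In newborns, 0 genes of these lists were called between transgenic and control, as was so for all genes. Uba6, a ubiquitin-activating enzyme, was the 1 measured gene of 6 in the list of ubiquitin genes and activating enzymes, and it differed by -0.13 in adults (adjusted p = 0.812).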

How the data were processed

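Gene expression was measured in total RNA of 11 left ventricles on Affymetrix arrays. The authors deposited log2 values per probe set (per the submitters' processing notes RMA, affy and limma were involved, without stated versions or roles), and these were used as deposited. Array medians lay between 5.12 and 5.18, so a shift of most genes in 1 direction would not show. Gene symbols came from the platform annotation. Of 45101 probe sets 34958 had 1 symbol, and the probe set with the highest mean stood for each gene. All 49 proteasome genes matched RefSeq (GRCm38.p6) by gene ID.

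The linear model held 1 mean per group for the 11 arrays together (limma 3.58.1, R 4.3.3, lmFit with eBayes), with 7 residual and 3.85 prior degrees of freedom. It had 5 contrasts, 2-sided tests and Benjamini-Hochberg adjustment over 18194 genes, so every adjusted p is limma's. The fit was tested on simulated data. Named genes were the inducible subunits, every gene called between transgenic and control, up to 3 called genes per role with age, and the smallest p of a role with 0 calls. The genes and lists were chosen with earlier results of these data known. The labels call the replicates biological without naming animals, so p-values measure the spread between these samples. Arrays hold no read depth, so their number limits precision. Alternatives were another filter, probe set rule, variance model, normalisation, batch or atrial term, a block, and leaving out arrays.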

Additional observations from a re-analysis of the deposited data

How the results depend on the processing

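Of the 5 genes called in adults, over 24 alternatives Psmd14 was called in 22, Psmd8 in 20, Psmc4 in 17, Psme1 in 13 and Psmc6 in 7. The count of 5 became 1 with only the compared groups in the fit, 8 with the 18S batch as a factor, and 0 with the atrial genes as a covariate (Psmd14 then at 0.59 and Psmd8 at 1.07, against 0.66 and 0.83). Leaving out 1 array at a time gave 2 to 5 in adults, 0 to 0 for the difference between ages, 6 to 12 for age in controls (10 with all arrays) and 7 to 11 for age in transgenic hearts (9 with all arrays). The 2 in adults came without control adult replicate 2 (4.1% of all genes) or 3 (5.52%). The 6 in controls came without control newborn replicate 1 (15.5%). The count for the difference between ages was 1 (Psmd14) with array weights (4.62% of all genes) and 1 with the 18S factor (2.72%). The count for age in transgenic hearts was 15 without the 18S batch (50.9% of all genes) and 5 with the atrial covariate (10.0%). The atrial covariate cannot be fully told apart from age. The newborn count was 0 in all 23 alternatives.

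Values that changed sign were not called with all arrays. Psmb8 in adults was -0.083 as the mean of its probe sets, and -0.29 to 0.43 without single arrays. Psmb9 in adults was 0.14 with array weights, 0.23 without the 18S batch, 0.33 with the atrial covariate, and -0.32 to 0.38 without single arrays (0.0062 without control adult replicate 1). Psme3 in adults was -0.031 as the mean of its probe sets. Psmb10 with age was 0.033 in controls with the 18S factor, and -0.22 in transgenic hearts without transgenic adult replicate 1. The cause of these changes was not tested.

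Whether replicate numbers pair the adult arrays could not be decided. Same-numbered adult arrays correlated at 0.31, -0.056 and 0.445 in their deviations, for replicates 1, 2 and 3. Differently numbered adult arrays correlated at -0.417 to 0.307, a range that holds the value of replicate 2 and lies below the others. The replicate 3 arrays of both genotypes also form the batch named above, so their value cannot separate pairing from batch. With the number as a replicate block, the counts were 4 in adults (Psmc6 was lost, adjusted p = 0.0527 by limma), 0 in newborns, 0 for the difference, 10 and 9 with age. With adult arrays alone and the block, an alternative added after seeing the data, 0 were called, against 3.72% of all genes.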
